A study of Arabidopsis thaliana with 21 samples.

Results

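AT1G19530, AT1G73120, AT5G56100 and AT1G76590 are 4 protein-coding loci of Arabidopsis thaliana, of 13356 genes that had a probe set of their own on the array. They were chosen by the size of their fall in the signal of young plate roots when 5% sucrose was in the medium. Each is read by 1 probe set, a group of short probes on the array whose brightness follows the amount of the gene's transcript. Of the 4 loci, 3 lie on chromosome 1 and AT5G56100 on chromosome 5. The annotation used here gives them a locus tag and no symbol.

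Roots of accession Col-0 were measured on 21 ATH1 arrays in 7 groups of 3, and all groups were wild type with no treatment other than their growth conditions. The 2 soil groups, ATGE_3 and ATGE_9, had constant light, 23 °C and 65% humidity, and the sampled roots of ATGE_3 carried some soil. Plates of 0.5x GM, a nutrient medium, kept at 20 °C in constant light, gave ATGE_94 and ATGE_98, and the same plates with 5% sucrose gave ATGE_95 and ATGE_99. The roots of ATGE_93 came from long-day plants kept at 22 °C on 1x MS, a second nutrient medium, with 1% sucrose. Most plants of ATGE_94 and ATGE_95 looked like 7-day-old plants, and later harvests of the series are ATGE_9 on soil and ATGE_98 with ATGE_99 on plates, as is known of the study. Ages are not given by the labels, nor how much sucrose GM itself holds, nor whether replicates came from separate cultures. The p-values therefore measure the spread between these samples, which may be technical.

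Sucrose is both the carbon supply of a root and a signal. When sugar is scarce, the kinase SnRK1 is active, and transcripts for the breakdown of amino acids and other reserves accumulate. When sugar is ample these transcripts fall, which is why genes that sucrose lowers are often read beside starvation genes such as those of leucine breakdown.

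Values are MAS5 signals on a linear scale, given as mean ± SD over the 3 arrays of a group. A signal below the 40th percentile of its array, which ran from 22.9 to 28.0, was treated as dim. Median signals ran from 38.7 to 45.2, and arrays of a group correlated with r from 0.977 to 0.987 across the probe sets tested, which are not independent replicates. A probe set reports its own hybridisation, so levels are compared between groups and never between genes. A whole root is a mix of cell types, and fewer cells of a type cannot be told apart from less RNA per cell. Root identity was checked on 7 probe sets of 15 listed root genes: their summed signal lay between 2508 and 6376 on every array, and among them PYK10, a beta-glucosidase abundant in roots, had group means from 2399 to 3362. XTH26, a wall enzyme of root hairs, was dim on all arrays of every group but ATGE_95 and ATGE_99, and the peroxidase genes AT3G49960 and AT1G34510 were dim on all soil arrays.

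The contrast that chose the genes was ATGE_95 against ATGE_94, and its values are given as a description with no test. AT1G19530 had signals of 163, 182 and 196 without sucrose and 31.1, 19.7 and 15.5 with it. AT1G73120 had 229, 249 and 328 without sucrose and 50.5, 38.8 and 43.9 with it. AT5G56100 had 227, 272 and 316 without sucrose and 52.3, 43.8 and 50.7 with it. In each of these 3 genes ATGE_94 replicate 3 was the highest array. AT1G76590 had 206, 215 and 181 without sucrose, where replicate 3 was the lowest, and 40.4, 45.1 and 38.2 with it. Among the 15284 probe sets tested, ordered by the size of their fall, AT1G19530 stood at 5, AT1G73120 at 12, AT5G56100 at 14 and AT1G76590 at 20. All 4 genes were picked for this fall, and 19.2% of all probe sets tested were called lower in the contrast. The fold was 8.47 for AT1G19530, 6.02 for AT1G73120, 5.52 for AT5G56100 and 4.87 for AT1G76590. With sucrose AT1G19530 was above the 40th percentile on 1 of 3 arrays, so its fold and its place rest largely on dim signals, and its log2 difference moved from −3.08 to −2.72 with a pseudocount of 6.99. The other 3 genes were above that percentile on every array.

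**Figure D1:**
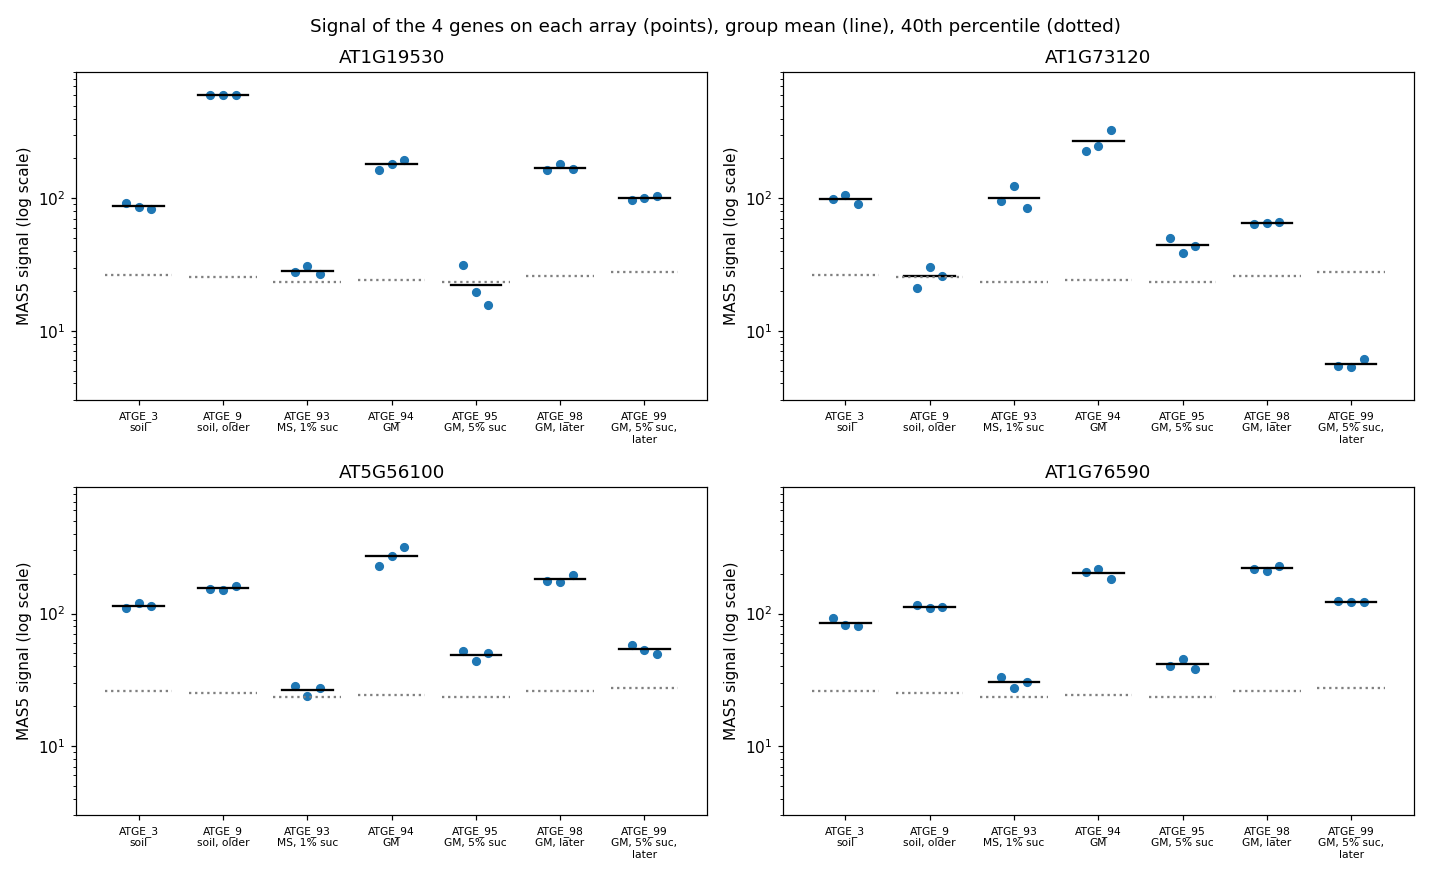
MAS5 signal of each gene (log axis) on the 3 arrays of each of the 7 groups. Points are arrays, solid lines are group means and dotted lines mark the 40th percentile. AT1G19530 is highest in ATGE_9 at 599.7, while AT1G73120 is highest in ATGE_94 at 269 and lowest in ATGE_99 at 5.63.

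Whether the fall with sucrose was also seen at the later harvest was asked on arrays that had no part in the choice, ATGE_99 against ATGE_98. All 4 genes were lower with sucrose, where 11.9% of all probe sets tested were called lower and 12.7% higher. AT1G73120 had signals of 63.4, 64.5 and 66.2 without sucrose and 5.40, 5.34 and 6.14 with it. It was dim on all 3 sucrose arrays, where it ranked between the 14.8th and 16.4th percentile, and was at least 2.34-fold lower. Its test used the signals as measured and not this bound (limma adjusted p = 5.7e-14). AT5G56100 had 177, 172 and 197 without sucrose and 57.8, 52.9 and 49.9 with it. Its fall was 3.40-fold, or −1.77 ± 0.11 on the log2 scale with the standard error of the fit (limma adjusted p = 1.9e-11).

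The other 2 genes fell less. AT1G76590 had signals of 219, 211 and 227 without sucrose and 125, 123 and 121 with it, a 1.78-fold fall (−0.83 ± 0.09, limma adjusted p = 2.4e-07). AT1G19530 had 163, 181 and 167 without sucrose and 97.5, 100.2 and 104 with it, a 1.69-fold fall (−0.76 ± 0.15, limma adjusted p = 0.0005). In every one of the 4 genes the arrays with and without sucrose did not overlap. That was also so of PYK10, which was not called (limma adjusted p = 0.48). The share of all probe sets without overlap was not counted. The median log2 difference of all probe sets tested was 0.01. Median centring turned the split of all calls from 1939 higher and 1816 lower to 1577 and 2156.

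The early and the late fall of a gene can be set side by side, but the difference between them was not tested, since the early fall chose the genes. AT1G19530 stood at 180.1 ± 16.4 and 170.2 ± 9.71 on GM alone in the earlier and later sets, whose arrays overlapped, and at 22.1 ± 8.06 and 101 ± 3.34 with sucrose. AT1G76590 was alike in this: 201 ± 17.8 and 219 ± 7.90 on GM alone, with overlapping arrays, and 41.2 ± 3.53 and 123 ± 1.67 with sucrose. In both genes, then, the stages lay apart with sucrose and not without it. In AT5G56100 the reverse was seen. It stood at 272 ± 44.9 and 182 ± 13.1 on GM alone, with no overlap, and at 48.9 ± 4.52 and 53.5 ± 3.97 with sucrose, where the arrays overlapped. AT1G73120 was lower in the later sets on both media, at 64.7 ± 1.40 against 269 ± 51.9 on GM alone and at 5.63 ± 0.448 against 44.4 ± 5.89 with sucrose. Stage coincides here with the set of plants grown and processed together, and these cannot be told apart. The choice of genes favoured high signals in ATGE_94 and low ones in ATGE_95, so the gaps between stages are a description only. In ATGE_95, AT1G19530 was above the 40th percentile on only 1 of 3 arrays.

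**Figure D2:**
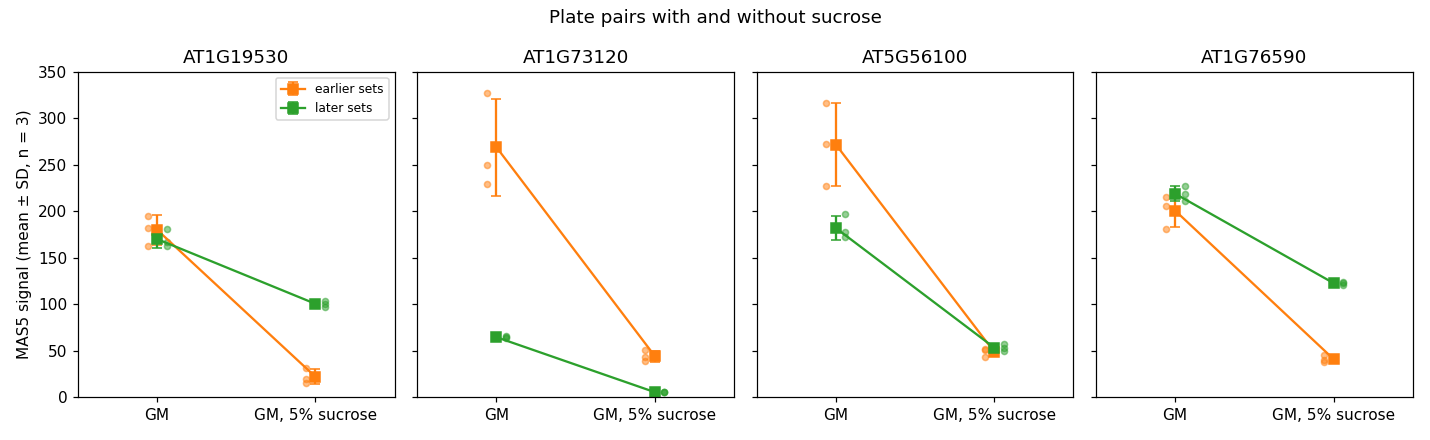
MAS5 signal (mean ± SD as squares and bars, arrays as pale points, n = 3) on GM and on GM with 5% sucrose, for the earlier sets (ATGE_94, ATGE_95) and the later sets (ATGE_98, ATGE_99). AT1G19530 and AT1G76590 start near the same level at both stages and end apart, while AT5G56100 starts apart and ends at 48.9 and 53.5. The earlier sets chose the genes, so these gaps are a description only.

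Markers of green tissue moved with sucrose too. Of 21 listed photosynthesis genes 3 had a probe set of their own: RCA, Rubisco activase, and LHCB4.1 and LHCB4.2, light-harvesting proteins. Their summed signal was 435 to 489.7 in ATGE_94 and 261 to 299.8 in ATGE_95, and 541 to 581 in ATGE_98 and 441 to 487 in ATGE_99. It was 262 to 306 in ATGE_93, 91.5 to 110.1 in ATGE_3 and 103 to 108 in ATGE_9. RCA was dim on all arrays of ATGE_9 and LHCB4.2 on all arrays of ATGE_3. In the later pair LHCB4.1 was lower with sucrose (−0.44 ± 0.10, limma adjusted p = 0.0019). RCA (−0.23 ± 0.10) and LHCB4.2 (0.28 ± 0.43) did not pass. The signal ratio of the 3' to the 5' actin control, a measure of RNA integrity, was 1.85 ± 0.426 on GM alone and 2.81 ± 0.783 with sucrose in the earlier pair, and 2.07 ± 0.185 and 1.58 ± 0.106 in the later pair. Most root genes moved the other way. With sucrose in the later pair 6 of the 7 rose and 0 fell, beside 12.7% and 11.9% of all probe sets tested. Their median log2 difference was 1.20, and their sum was 3812 to 4026 in ATGE_98 and 4602 to 4736 in ATGE_99. XTH26, counted among the rises, was dim in ATGE_98. PYK10, which was not called (−0.09 ± 0.08), held most of each sum, at 3296 ± 151 in ATGE_98 and 3093 ± 31.1 in ATGE_99. The part of these markers and of RNA integrity in the falls was not tested.

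On soil, ATGE_9 against ATGE_3 asked how the genes changed between the older and the younger roots with no sucrose supplied on a plate. The 4 genes parted here. AT1G19530 had signals of 92.8, 86.3 and 83.1 in ATGE_3 and 598, 600.3 and 600.5 in ATGE_9. It rose 6.87-fold (2.78 ± 0.15, limma adjusted p = 9.4e-13), and the arrays of ATGE_9 lay at the 95.6th to 95.7th percentile. AT1G73120 had 98.5, 106 and 90.6 in ATGE_3 and 21.1, 30.5 and 25.8 in ATGE_9, where 2 of 3 arrays were above the 40th percentile. It fell 3.85-fold (−1.94 ± 0.15, limma adjusted p = 9.3e-10).

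The remaining genes moved little on soil. AT5G56100 had signals of 109, 120.2 and 114 in ATGE_3 and 153, 151 and 160.0 in ATGE_9, a 1.35-fold rise (0.43 ± 0.11, limma adjusted p = 0.0039). AT1G76590 had 93.3, 82.0 and 81.0 in ATGE_3 and 115, 109.6 and 111 in ATGE_9, a 1.31-fold rise (0.39 ± 0.09, limma adjusted p = 0.0021). So 3 of 4 genes rose and 1 fell, where 11.4% of all probe sets tested were called higher and 15.3% lower. None of the 4 genes had arrays that overlapped between the 2 soil groups. The same was so of AT4G17900, which was not called (limma adjusted p = 0.24), and the share of all probe sets without overlap was not counted. The actin ratio was 2.38 ± 0.104 in ATGE_3 and 1.76 ± 0.140 in ATGE_9. Of the 7 root genes 5 fell and 0 rose, with a median log2 difference of −0.78, and their sum was 3156 to 3316 in ATGE_3 and 2508 to 2569 in ATGE_9. AT3G49960 and AT1G34510, counted among the falls, were dim in both groups. The part of the actin ratio and of the root genes was not tested.

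Older soil roots were then set against later plate roots without added sucrose, ATGE_9 against ATGE_98, which differ in substrate and by 3 °C in temperature among other things. AT1G19530 was 3.53-fold higher on soil (1.82 ± 0.15, limma adjusted p = 1.9e-10). AT1G73120 was 2.54-fold lower (−1.34 ± 0.15, limma adjusted p = 5.7e-08) and AT1G76590 1.95-fold lower (−0.97 ± 0.09, limma adjusted p = 2.2e-09). AT5G56100, at 155 ± 4.69 and 182 ± 13.1, gave −0.23 ± 0.11 (limma adjusted p = 0.06) and did not pass, although its arrays did not overlap. It passed when only these 2 groups were fitted (limma adjusted p = 0.019). Over all probe sets tested 33.9% were called higher and 32.9% lower, so a call in this comparison was common. All 7 root genes were lower in ATGE_9, with a median log2 difference of −1.81. That median is the value of XTH26, dim in both groups, and AT3G49960 and AT1G34510 were dim in ATGE_9. Of the 3 photosynthesis genes 2 were lower, with a median of −2.27, among them RCA, dim in ATGE_9. The part of these markers was not tested.

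The long-day roots on MS with 1% sucrose were low in 3 of the 4 genes. AT1G19530 had signals of 27.7, 30.6 and 26.6 in ATGE_93, AT5G56100 28.5, 23.7 and 27.4, and AT1G76590 33.0, 27.3 and 30.3, all within the 40.4th to 46.6th percentile of their arrays. AT1G73120 stood apart with 95.0, 123 and 84.8, at percentiles from 68.35 to 75.8. AT5G56100 and AT1G76590 had their lowest group mean in these roots.

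Against later GM roots without added sucrose, ATGE_93 against ATGE_98, AT1G76590 was 7.27-fold lower (−2.86 ± 0.09, limma adjusted p = 4.3e-17). AT5G56100 was 6.87-fold lower (−2.78 ± 0.11, limma adjusted p = 1.3e-15) and AT1G19530 6.02-fold lower (−2.59 ± 0.15, limma adjusted p = 1e-12). AT1G73120 was 1.54-fold higher (0.62 ± 0.15, limma adjusted p = 0.0012). Root genes moved here as well, with 6 of 7 higher in ATGE_93, 1 lower and a median of 1.63. XTH26, counted as higher, was dim in both groups. Of the 3 photosynthesis genes 2 were lower, with a median of −0.74. The actin ratio was 1.38 ± 0.0923 in ATGE_93 and 2.07 ± 0.185 in ATGE_98, and the part of these was not tested. The background was 36.7% called lower and 27.1% higher, which turned to 3984 lower and 5591 higher probe sets after each array was centred on its median, from 5605 and 4136.

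Against later GM roots with 5% sucrose, ATGE_93 against ATGE_99, these 3 genes were lower too. AT1G76590 was 4.08-fold lower (−2.03 ± 0.09, limma adjusted p = 5.1e-14), AT1G19530 3.56-fold lower (−1.83 ± 0.15, limma adjusted p = 7e-10) and AT5G56100 2.02-fold lower (−1.01 ± 0.11, limma adjusted p = 4.9e-08). AT1G73120 was at least 3.60-fold higher in ATGE_93, and its test used the signals as measured and not this bound (limma adjusted p = 2.2e-15). Of the 7 root genes 2 were higher in ATGE_93 and 0 lower, and 2 of the 3 photosynthesis genes were lower, and their part was not tested. So the plates with less sucrose listed carried less signal of 3 genes than the plates with more. Medium, day length and temperature differ between these groups as well, and their parts cannot be told apart from that of sucrose. Here 33.7% of all probe sets tested were called lower and 22.6% higher, or 3043 lower and 5412 higher after median centring against 5153 and 3452 before. The comparisons with ATGE_98 share its arrays, as those with ATGE_99 and with ATGE_93 share theirs.

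**Figure D3:**
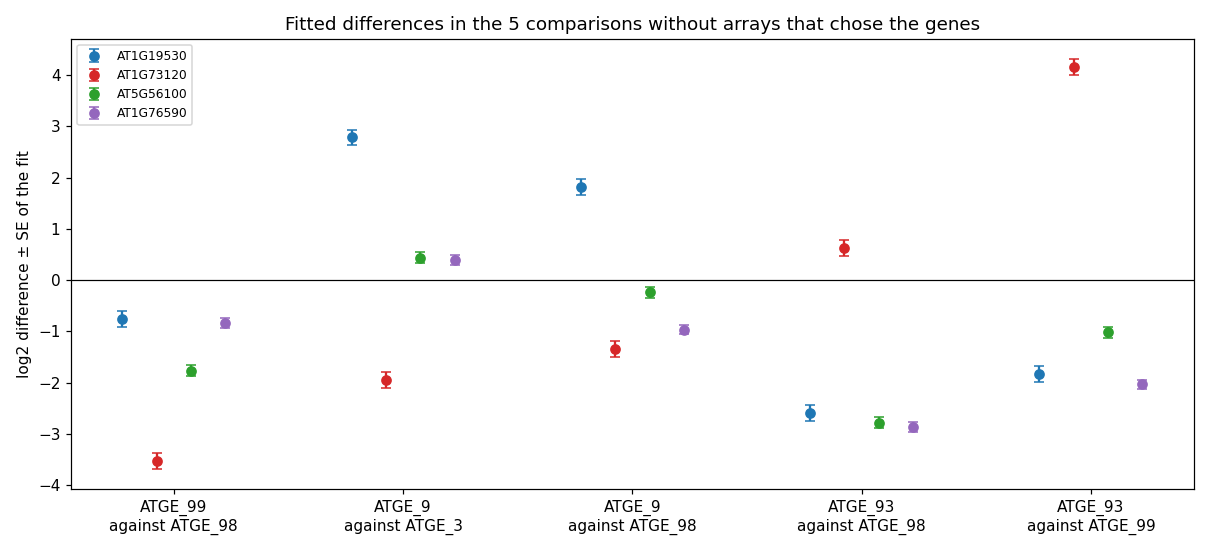
Fitted log2 difference (± SE of the fit) of the 4 genes in the 5 comparisons that hold no array of ATGE_94 or ATGE_95. All 4 points lie below 0 in ATGE_99 against ATGE_98, the points of AT1G73120 that involve ATGE_99 rest on dim arrays, and AT1G73120 lies opposite to AT1G19530 in every other comparison.

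Across the 7 groups the order of levels differed between the genes. AT1G19530 ran from ATGE_9 through ATGE_94, ATGE_98, ATGE_99, ATGE_3 and ATGE_93 to ATGE_95, and the arrays of neighbours overlapped for ATGE_94 and ATGE_98 and for ATGE_93 and ATGE_95. AT1G73120 ran from ATGE_94 through ATGE_93, ATGE_3, ATGE_98, ATGE_95 and ATGE_9 to ATGE_99, with overlap for ATGE_93 and ATGE_3. AT5G56100 ran from ATGE_94 through ATGE_98, ATGE_9, ATGE_3, ATGE_99 and ATGE_95 to ATGE_93, a 10.2-fold range, with overlap for ATGE_99 and ATGE_95. AT1G76590 ran from ATGE_98 through ATGE_94, ATGE_99, ATGE_9, ATGE_3 and ATGE_95 to ATGE_93, a 7.25-fold range, with overlap for ATGE_98 and ATGE_94. No range is given for AT1G73120, whose lowest group was dim, nor for AT1G19530, dim on 2 of 3 arrays of its lowest group. Younger soil roots, ATGE_3, were 2.06-fold, 2.71-fold, 2.35-fold and 2.35-fold below ATGE_94 for AT1G19530, AT1G73120, AT5G56100 and AT1G76590, a description only, since ATGE_94 chose the genes.

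Pearson's r of log2 signals over the 21 arrays was 0.86 between AT5G56100 and AT1G76590, 0.77 between AT1G19530 and AT5G56100, and 0.76 between AT1G19530 and AT1G76590. AT1G73120 gave 0.35 with AT5G56100, 0.00 with AT1G76590 and −0.10 with AT1G19530. Over the 15 arrays outside ATGE_94 and ATGE_95 its values were 0.05, −0.37 and −0.33, and those among the other 3 genes ran from 0.68 to 0.82. The arrays fall into 7 groups, so these values describe shared group means and carry no test.

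Among 8240 other named probe sets, the one most like AT5G56100 was that of MCCA (AT1G03090), a subunit of methylcrotonyl-CoA carboxylase in leucine breakdown, with r = 0.990 over 21 arrays and 0.990 over the 15. Without added sucrose MCCA stood at 447 ± 34.4 in ATGE_94 and 306 ± 4.83 in ATGE_98, and with it at 133 ± 7.07 in ATGE_95, 126 ± 5.42 in ATGE_99 and 81.2 ± 5.06 in ATGE_93. On soil it stood at 240 ± 5.20 in ATGE_3 and 302 ± 7.85 in ATGE_9. The group order of the 2 genes was the same except that ATGE_95 lay above ATGE_99 in MCCA. The next were AT2G32150, AT5G24490, AT2G31810 and AT5G51970, with r from 0.959 to 0.971, and from 0.948 to 0.964 over the 15.

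Most like AT1G76590 were AT4G19160 (r = 0.967), ATL8 (AT1G76410), a RING-type ubiquitin ligase gene (0.960), AT4G32160, AT1G74840 and AT3G23080 (0.943 to 0.959). Over the 15 arrays AT4G19160 gave 0.978 and ATL8 0.970, and the other 3 gave 0.945 to 0.957. ATL8 stood at 236 ± 14.1 in ATGE_94 and 73.7 ± 8.54 in ATGE_95, at 279.9 ± 24.2 in ATGE_98 and 141 ± 17.5 in ATGE_99, and at 37.6 ± 5.55 in ATGE_93. Most like AT1G19530 were AT1G26665 (r = 0.964), AT4G27450 (0.955), AT3G10020 (0.954), WRKY53 (AT4G23810), a transcription factor of leaf senescence (0.941), and AT1G78150 (0.927). Over the 15 arrays outside the pair that chose the genes their order differed: AT3G10020 gave 0.982, AT4G27450 0.964, AT1G26665 0.955, WRKY53 0.954 and AT1G78150 0.946. AT4G27450 stood at 703 ± 27.1 in ATGE_9 against 274 ± 30.4 in ATGE_3. AT3G10020 stood at 801 in ATGE_9 against 210.1 in ATGE_3.

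AT1G73120 had the weakest matches: AT1G74770 (r = 0.902), AT2G48030 (0.877), AT3G12900 (0.808), AT4G32870 (0.806) and AT5G42000 (0.805). Over the 15 arrays AT3G12900 came first of these with 0.919, ahead of AT1G74770 with 0.873, AT2G48030 with 0.871, AT5G42000 with 0.786 and AT4G32870 with 0.751. Every r of AT1G73120 includes ATGE_99, where it was dim on all arrays. AT3G12900 was dim there too, at 7.50 ± 3.94, so its r rests partly on dim signals of both genes. AT1G74770 stood at 339 ± 34.3 on GM alone and 168 ± 13.3 with sucrose in the earlier pair, and at 124 ± 7.59 and 52.0 ± 7.37 in the later pair. It had its highest group mean in ATGE_94 and its lowest in ATGE_99, as AT1G73120 did.

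Sugar starvation genes gave a known reference for a fall with sucrose. Of 25 listed genes 8 had a probe set of their own, and 8 probe sets were tested. In ATGE_99 against ATGE_98 all 8 fell, with a median log2 difference of −0.80 beside 0.01 over all probe sets, of which 11.9% fell, and a range from −1.28 to −0.40. They included MCCA (2.42-fold, limma adjusted p = 2.4e-12), IVD (AT3G45300), isovaleryl-CoA dehydrogenase of leucine breakdown (1.93-fold, limma adjusted p = 1.8e-10), AKINBETA1 (AT5G21170), a subunit of the SnRK1 complex (1.73-fold, limma adjusted p = 2.9e-08), and AT3G15450 (1.96-fold, limma adjusted p = 1e-11). AT5G56100, at −1.77, lay below this range and AT1G19530 and AT1G76590 within it, while AT1G73120, dim with sucrose, has only a bound. The list was assembled with earlier results of these arrays known, so its direction is not independent evidence.

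In ATGE_93 against ATGE_98 the 8 starvation probe sets fell again, with a median of −1.56 and a range from −2.80 to −1.01, where 36.7% of all probe sets tested fell with a median of −0.10. AT1G19530 and AT5G56100 lay within this range and AT1G76590 below it, while AT1G73120 was higher. In ATGE_93 against ATGE_99 all 8 were lower too, with a median of −0.55. There 33.7% of all probe sets tested were called lower, and the median over all was −0.11. In ATGE_9 against ATGE_3, 5 of the 8 rose and 1 fell, with a median of 0.38, where 11.4% of all probe sets tested rose and 15.3% fell with a median of −0.04. MGL (AT1G64660), methionine gamma-lyase, gave the largest rise at 1.99 ± 0.07 (limma adjusted p = 1.4e-15). AT1G19530 rose more than any of the 8, and AT1G73120 fell more than GAT1_2.1 (AT1G15040), the 1 starvation gene that fell, at −0.42 ± 0.09.

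**Figure D4:**
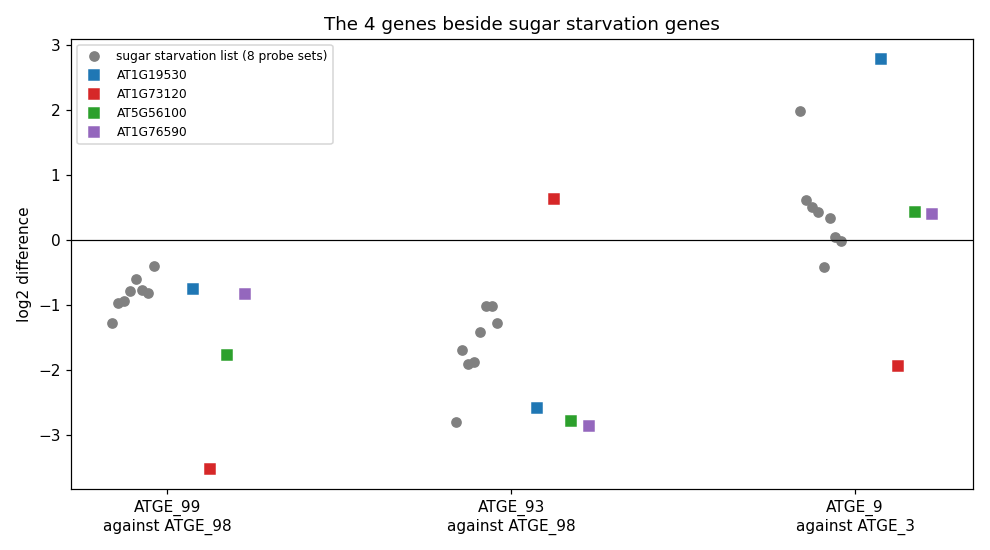
Fitted log2 difference of the 4 genes (squares) and of the 8 tested probe sets of the sugar starvation list (grey circles) in 3 comparisons. The starvation genes lie between −1.28 and −0.40 in ATGE_99 against ATGE_98, where the fitted point of AT1G73120 rests on dim arrays, and AT1G73120 lies on the other side of 0 from all 8 in ATGE_93 against ATGE_98.

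Further lists held genes responding to low oxygen, of the PLATZ family of zinc-dependent DNA-binding proteins and of the oleosin family of oil-body proteins. The annotation used here gives the 4 genes no symbol, so it does not show whether any of them belongs to these groups of genes. Of 26 low-oxygen genes 9 had a probe set of their own and 7 were tested. In ATGE_99 against ATGE_98, 3 of 7 fell and 1 rose, with a median of −0.19, beside 11.9% and 12.7% of all probe sets tested. The falls were AT4G27450 (1.86-fold, limma adjusted p = 4.7e-08), AT1G33055 (2.10-fold, limma adjusted p = 0.00011) and AT5G66985 (1.35-fold, limma adjusted p = 0.0092), and the rise was AT4G10270, dim in both groups. In ATGE_9 against ATGE_3, 2 of 7 rose and 0 fell, with a median of 0.55, beside 11.4% and 15.3% of all probe sets tested. AT4G27450 rose 2.57-fold (limma adjusted p = 2.8e-11). In ATGE_9 against ATGE_98, 5 of 7 rose and 1 fell, with a median of 0.64, beside 33.9% and 32.9% of all probe sets tested. Among the rises, AT4G10270, AT4G24110 and AT3G27220 were dim on all arrays of ATGE_98. Their lower bounds were 1.02-fold, 1.67-fold and 1.23-fold. AT4G27450 rose 1.56-fold and was dim in neither group. CML38 (AT1G76650), a calmodulin-like protein, stood at 390.0 ± 20.7 in ATGE_9, 391 ± 20.8 in ATGE_3 and 23.0 ± 5.11 in ATGE_98, and was 17.3-fold higher in ATGE_9 than in ATGE_98 (limma adjusted p = 8.8e-11). Its ATGE_98 mean lay below the 40th percentile of those arrays, 25.5 to 26.8, so this fold rests partly on dim signals.

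Of 11 PLATZ loci 6 had a probe set of their own and 4 were tested. In ATGE_99 against ATGE_98, 1 of 4 fell and 0 rose, with a median of −0.10, beside 11.9% and 12.7% of all probe sets tested. AT1G21000 fell 1.33-fold (limma adjusted p = 0.0011), and AT1G32700 (−0.14 ± 0.10), AT4G17900 (−0.06 ± 0.08) and AT5G46710 (0.05 ± 0.11) did not pass. In ATGE_9 against ATGE_3, 2 of 4 rose and 0 fell, with a median of 0.21, beside 11.4% and 15.3% of all probe sets tested. In ATGE_93 against ATGE_98, 3 fell and 1 rose, with a median of −0.67 beside −0.10 over all probe sets, of which 36.7% fell and 27.1% rose. Of 9 oleosin genes 4 had a probe set of their own and 0 were bright enough to be tested.

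The nearest genes on the chromosome were looked at for signals of their own, as values with no test. AT1G76600, beside AT1G76590, stood at 238 ± 2.47 on GM alone and 66.6 ± 3.50 with sucrose in the earlier pair, at 257 ± 27.4 and 146 ± 8.36 in the later pair, and at 118 ± 21.9 in ATGE_93. Its group means with sucrose lay below those without it at both stages, and on soil it stood at 321 ± 12.0 in ATGE_3 and 502 ± 5.61 in ATGE_9. AT1G76580, on the other side, stood at 64.2 ± 6.39 on GM alone and 37.3 ± 3.45 with sucrose in the earlier pair, at 59.1 ± 2.77 and 58.6 ± 3.17 in the later pair, and at 28.7 ± 3.59 in ATGE_93. AT1G19540, beside AT1G19530, stood at 34.9 ± 2.70 and 18.1 ± 1.54 in the earlier pair, at 64.0 ± 4.55 and 57.6 ± 2.92 in the later pair, and at 21.5 ± 1.69 in ATGE_93. On soil it stood at 56.6 ± 4.63 in ATGE_3 and 104 ± 8.63 in ATGE_9. AT1G73130, beside AT1G73120, stood at 35.2 ± 8.17 on GM alone and 42.9 ± 6.30 with sucrose in the earlier pair, and in the later pair at 54.6 ± 3.14 and 43.8 ± 2.70. The gene model of AT5G56100 overlaps that of COX15 in TAIR10.1, and COX15 had no probe set of its own in the annotation used here.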

How the data were processed

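Total RNA of 21 root samples was labelled with biotin and hybridised to ATH1 arrays, 1 array a sample. The deposited values are linear signal intensities that the authors made with MAS5, per the submitters' processing notes. For MAS5 no version or setting is given in the sources used. The mean of every array after removal of the lowest and highest 2% was 100.0, and this scaling was kept. Detection calls were not used here, and the number of arrays limits the precision.

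Of 22810 probe sets, 64 controls were left out. Names came from the platform annotation, with symbols updated through gene numbers: 13513 probe sets had 1 gene, 503 several and 8730 none, and 13436 of the first matched a locus tag. Probe sets above the 40th percentile of their array on at least 3 arrays (15284, all 4 genes among them) were fitted as log2 signals with no pseudocount in limma 3.58.1 (R 4.3.3), with a mean for each of 7 groups, an intensity trend and 14 residual degrees of freedom. All tests, two-sided, were adjusted by Benjamini-Hochberg within each of 5 comparisons, with a threshold of 0.05. The pipeline was tested on simulated data.

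Where all arrays of a group were dim, each dim array entered the fold at its 40th percentile or at its own signal if higher, and the fold is printed as a lower bound. Genes named beside the 4 were up to 4 a list by the smallest adjusted p in ATGE_99 against ATGE_98 and the 5 most correlated named genes for each of the 4. MGL, GAT1_2.1, CML38, AT4G24110 and AT3G27220, and the neighbouring genes, were added after their values were seen, as were correlations over 15 arrays. The members, lists and tests were chosen with earlier results of these data known.

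Replicate letters did not pair the samples: over 63 pairs of arrays with the same letter, deviations from group means correlated with r from −0.08 to 0.07. Tables and plots used Python 3.11.15, pandas 2.3.3 and matplotlib 3.10.9.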

Additional observations from a re-analysis of the deposited data

Results flagged for a closer look

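AT5G56100 drew attention because its arrays moved in opposite ways with harvest on soil and on GM: all 3 arrays of ATGE_9 lay above those of ATGE_3 (0.43 on the log2 scale), and all 3 of ATGE_98 lay below those of ATGE_94 (−0.57). The effects differ by 1.00 on the log2 scale, and the difference was not tested, because ATGE_94 helped to choose the gene. No group held enough arrays for a check of single outlying samples.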

How the results depend on the processing

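The 5 comparisons were repeated with quantile normalization, median centring, all 22746 probe sets, a stricter filter (60th percentile), no intensity trend, a pseudocount of 6.99, a fit of the compared groups alone, replicate letters as a block, and each array of the compared groups left out in turn. The number of the 4 genes past the threshold changed only in ATGE_9 against ATGE_98, from 3 to 4 when these groups alone were fitted. The number of probe sets called stayed within 1.5 times its value in all 70 repeats. With the replicate block 4 of the 4 genes passed in ATGE_99 against ATGE_98, and it changed no call of the 4 genes in any of the 5 comparisons. Of 280 repeated log2 differences, 279 kept direction and call. The exception was AT5G56100 in ATGE_9 against ATGE_98, which passed with only the 2 groups fitted (−0.23, adjusted p = 0.019), and whose adjusted p ran from 0.019 to 0.21 over the alternatives. The highest adjusted p of the other called differences was 0.021, for AT5G56100 in ATGE_9 against ATGE_3. AT1G73120 in ATGE_99 against ATGE_98 ran from −3.70 to −2.51, where the pseudocount gave the smallest fall by its construction, since the sucrose arrays were dim. Median centring moved the median of all probe sets by 0.18 in ATGE_93 against ATGE_98 and by 0.21 in ATGE_93 against ATGE_99, and AT1G73120 in the first ran from 0.47 to 0.80. It also turned the split of calls in ATGE_9 against ATGE_3 from 1742 higher and 2339 lower to 2146 and 1772. In the contrasts that chose the genes or share their arrays, the limit was the standard error times the square root of 1.5. A changed filter or a fit without the intensity trend cannot alter a fitted log2 difference, so those repeats were bound to stay. They are among the 103 of 120 repeats that moved a value by less than this limit. The other 17 repeats moved it by more. Among them AT5G56100 in ATGE_99 against ATGE_95 changed sign, from 0.13 to −0.03 with quantile normalization and −0.06 with median centring; no other log2 difference of the 4 genes did.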
